A study of Mus musculus with 6 samples.

Results

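Mapt, Gria1, Colq, Slc7a10, Faim2, Ppl, Rgcc and Colgalt2 were followed across 6 libraries of mouse lung fibroblasts (FBs), 8 genes of the 30830 rows in the single-dose PBS table, the 30828 rows in the single-dose bleomycin table and the 32285 rows in the repetitive and organoid tables. They were chosen by their measured levels, as genes lower in FBs after bleomycin in both lung experiments or as leading genes of the lipofibroblasts (LipoFBs) of PBS lung. The differences between bleomycin and PBS FBs, and between PBS LipoFBs and other PBS FBs, are therefore given as a description. All 8 symbols were present in all 6 tables.

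The cells were GFP+ cells of adult male Pdgfra-GFP mice, whose GFP reports the Pdgfra gene and so marks most lung FBs but no single FB type. In the single-dose experiment, mice received PBS or bleomycin by oropharyngeal aspiration, and lungs were taken on day 14. For that dose the protocol and the treatment field of the labels differ, with 2 and 4 U/kg. In the repetitive experiment, mice received PBS or bleomycin once a week for 3 weeks, at 1 U/kg for the first and second dose and 0.5 U/kg for the last, and lungs were taken 14 days after the last. For the organoids, GFP+ FBs of PBS mice (normal) or of bleomycin mice (fibrogenic, 2 U/kg) were grown for 2 weeks in Matrigel with alveolar type 2 epithelial cells (AEC2s), which carried a Tomato label induced by tamoxifen from SpcCreER in separate donors. Each library pooled cells of 3 mice. Every condition was a single library, which leaves the variation from mouse to mouse unmeasured, and no difference was tested.

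Several of these genes are best known from neurons and synapses. Tau, the product of Mapt, binds and stabilizes axonal microtubules, GluA1 from Gria1 is a subunit of the AMPA-type glutamate receptor, and ColQ is the collagen-like tail that anchors acetylcholinesterase in the basal lamina of the neuromuscular junction. Slc7a10 encodes Asc-1, a carrier of small neutral amino acids such as serine and glycine that is used by astrocytes, neurons and adipocytes. Faim2 encodes a membrane protein that limits Fas-mediated death in neurons. Ppl (periplakin) ties intermediate filaments to desmosomes in epithelia, Rgcc encodes a regulator of the cell cycle that binds CDK1, and Colgalt2 encodes an enzyme that adds galactose to hydroxylysine in collagen. LipoFBs are lipid-storing FBs of the alveolar wall that lie beside AEC2s and are marked by genes such as Tcf21 and Plin2.

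The lung libraries held 1015 to 10737 barcodes and 7201081 to 68354458 unique molecular identifiers (UMIs), and the organoid libraries 211680702 and 238618743 UMIs. FBs numbered 906 (PBS) and 832 (bleomycin) after the single dose, 5384 and 8484 after repetitive exposure, and 2843 (normal) and 5768 (fibrogenic) in organoids. Depth differed between arms, with a median of 10564 UMIs per FB in the repetitive PBS library and 2843 in the repetitive bleomycin library. In organoids the medians were 41804 (normal) and 3638.5 (fibrogenic). The single-dose medians went the other way, at 6853 (PBS) and 11650.5 (bleomycin). No pair of libraries shared more than 30 barcodes. UMIs were summed over the barcodes of a group and are given as CPM, the UMIs of a gene scaled to one common total of UMIs in every group, with exact 95% Poisson intervals in brackets. These intervals cover counting error only. Log2 ratios were taken after adding 1 CPM, and a gene was called lower or higher where its log2 ratio passed 1 in size and it had at least 20 UMIs over both groups.

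The 8 genes lie on 6 chromosomes (GRCm38, GENCODE M21 annotation). Mapt (chr11:104231390-104332090, plus strand) and Gria1 (chr11:57011387-57330244, plus strand) share chromosome 11, and Colq (chr14:31523082-31591343, minus strand) and Rgcc (chr14:79288756-79301645, minus strand) share chromosome 14. Slc7a10 (chr7:35186385-35201114, plus strand), Faim2 (chr15:99497012-99528165, minus strand), Ppl (chr16:5086291-5132421, minus strand) and Colgalt2 (chr1:152399830-152510695, plus strand) are alone on theirs. All are protein-coding genes and the intervals span the whole gene. Mapt overlaps the antisense gene Gm11659, and whether strand was used in counting is not given in the sources used here. Slc7a10 overlaps Lrp3 on the other strand, and Lrp3 stood at 19.3 and 15.1 CPM in single-dose PBS and bleomycin FBs and at 15.02 and 14.9 CPM in the repetitive ones.

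RefSeq promoter sequences (GRCm38.p6, 250 bases before to 50 after the start site, written along the gene's strand) were at hand for Slc7a10 (chr7:35186135-35186434) and Rgcc (chr14:79301586-79301885), while Mapt, Gria1, Colq, Faim2, Ppl and Colgalt2 had no entry. They are shown because they were the ones at hand. In culture Slc7a10 was nearly absent and Rgcc was not, and a link of this to the sequences was not tested. Capitals mark the GC box, GGGCGG on either strand.

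Slc7a10: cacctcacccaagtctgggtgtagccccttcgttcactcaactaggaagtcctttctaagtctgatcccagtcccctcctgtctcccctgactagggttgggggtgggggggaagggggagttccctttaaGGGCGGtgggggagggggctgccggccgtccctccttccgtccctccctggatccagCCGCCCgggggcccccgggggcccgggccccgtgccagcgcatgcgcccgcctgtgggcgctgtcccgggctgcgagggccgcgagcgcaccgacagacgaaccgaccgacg
Rgcc: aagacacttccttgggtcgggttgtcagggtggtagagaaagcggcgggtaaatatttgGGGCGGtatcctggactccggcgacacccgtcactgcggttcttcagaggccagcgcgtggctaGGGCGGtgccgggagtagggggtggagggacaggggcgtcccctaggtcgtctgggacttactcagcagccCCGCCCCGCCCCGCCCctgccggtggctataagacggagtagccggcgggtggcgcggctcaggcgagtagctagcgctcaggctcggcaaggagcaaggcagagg

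The Slc7a10 promoter held 2 GC boxes and the Rgcc promoter 5, of which 3 overlap one another by 1 base, and 35.7% of all 32851 mouse promoters of this length held at least 1. Neither window held CAGCTG (an E-box, found in 16.3% of all promoters), TGANTCA (AP-1, 7.81%), AGAACA (a glucocorticoid receptor motif, 18.97%), TGACCT (a nuclear receptor motif, 16.3%) or TATAAA (the classic core promoter box, 13.6%), searched on both strands. Their GC content was 70.7% and 66.7%, against a median of 52.7% over all promoters.

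Markers of neurons and glia were detected at low summed levels in these FBs. Of 10 neuronal markers (Snap25, Elavl4, Syt1 and others), 7 had no UMI in the single-dose PBS FBs, and their summed level was 2.30 and 7.26 CPM in PBS and bleomycin. In the repetitive FBs the sums were 3.51 and 8.13 CPM, led by Tubb3 at 2.48 and 4.78 CPM, with Snap25 and Nefl at 0 in PBS and all 10 markers detected after bleomycin. The 7 Schwann and glial markers summed to 7.24 and 20.1 CPM after the single dose and to 7.71 and 15.9 CPM in the repetitive libraries. Sox10, a defining gene of glia, was at 0 in both single-dose libraries and detected in both repetitive ones, where 6 and 7 of the 7 markers had UMIs. S100b made up most of the sums after bleomycin, at 14.4 and 8.47 CPM. S100b was thus above Colq, Gria1, Faim2, Ppl and Colgalt2, 5 of the 8 genes, in single-dose bleomycin FBs. The sums of both lists were higher after bleomycin than in PBS, while the 8 genes were lower.

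Mapt, the tau gene, stood at 125 CPM [116 to 134] in single-dose PBS FBs and at 22.2 CPM [19.4 to 25.2] in bleomycin FBs. In the repetitive experiment it stood at 166 CPM [163 to 169.6] and 32.4 CPM [30.98 to 33.9]. The PBS level was 5.63 times the bleomycin level after the single dose and 5.13 times after repetitive exposure.

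Gria1, the AMPA receptor subunit, stood at 41.2 CPM [36.2 to 46.6] and 4.11 CPM [2.97 to 5.53] in single-dose PBS and bleomycin FBs, and at 143 CPM [140.4 to 147] and 26.6 CPM [25.3 to 27.97] in the repetitive libraries. The tables of the 2 experiments were made separately, so levels are compared within an experiment and only set side by side across them. Within the experiments, PBS was 10.02 and 5.39 times bleomycin.

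Colq, the acetylcholinesterase tail, stood at 101 CPM [93.2 to 109] and 9.36 CPM [7.60 to 11.4] in single-dose PBS and bleomycin FBs and at 88.7 CPM [86.3 to 91.1] and 17.9 CPM [16.9 to 19.04] in the repetitive ones. PBS was 10.8 and 4.95 times bleomycin. Slc7a10, the small amino acid carrier, stood at 114 CPM [106 to 123] and 26.5 CPM [23.5 to 29.9] after the single dose and at 65.8 CPM [63.8 to 67.9] and 12.3 CPM [11.4 to 13.2] after repetitive exposure, so that PBS was 4.30 and 5.37 times bleomycin. Over all FBs, both genes were higher in PBS in each experiment, a difference that entered the choice of the genes.

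Faim2, the Fas inhibitor, stood at 106 CPM [97.7 to 114] and 12.1 CPM [10.1 to 14.4] in the single-dose libraries and at 65.7 CPM [63.6 to 67.8] and 16.5 CPM [15.5 to 17.6] in the repetitive ones. Ppl, the periplakin gene, stood at 39.8 CPM [34.98 to 45.2] and 6.59 CPM [5.13 to 8.34], and at 79.9 CPM [77.7 to 82.2] and 20.3 CPM [19.2 to 21.5]. The PBS level of Faim2 was 8.72 and 3.97 times the bleomycin level, and that of Ppl 6.05 and 3.94 times.

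Rgcc, the cell cycle regulator, stood at 72.6 CPM [65.98 to 79.7] and 18.5 CPM [16.01 to 21.3] after the single dose and at 88.6 CPM [86.2 to 91.1] and 19.8 CPM [18.6 to 20.9] after repetitive exposure. It had the smallest single-dose ratio of the 8, with PBS 3.92 times bleomycin, and 4.49 times in the repetitive experiment. Colgalt2, the collagen galactosyltransferase, stood at 12.2 CPM [9.57 to 15.3] and 1.05 CPM [0.524 to 1.88], the latter on 11 UMIs, and at 29.1 CPM [27.8 to 30.5] and 5.03 CPM [4.48 to 5.64]. Its PBS level was 11.6 and 5.79 times its bleomycin level.

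**Figure D1:**
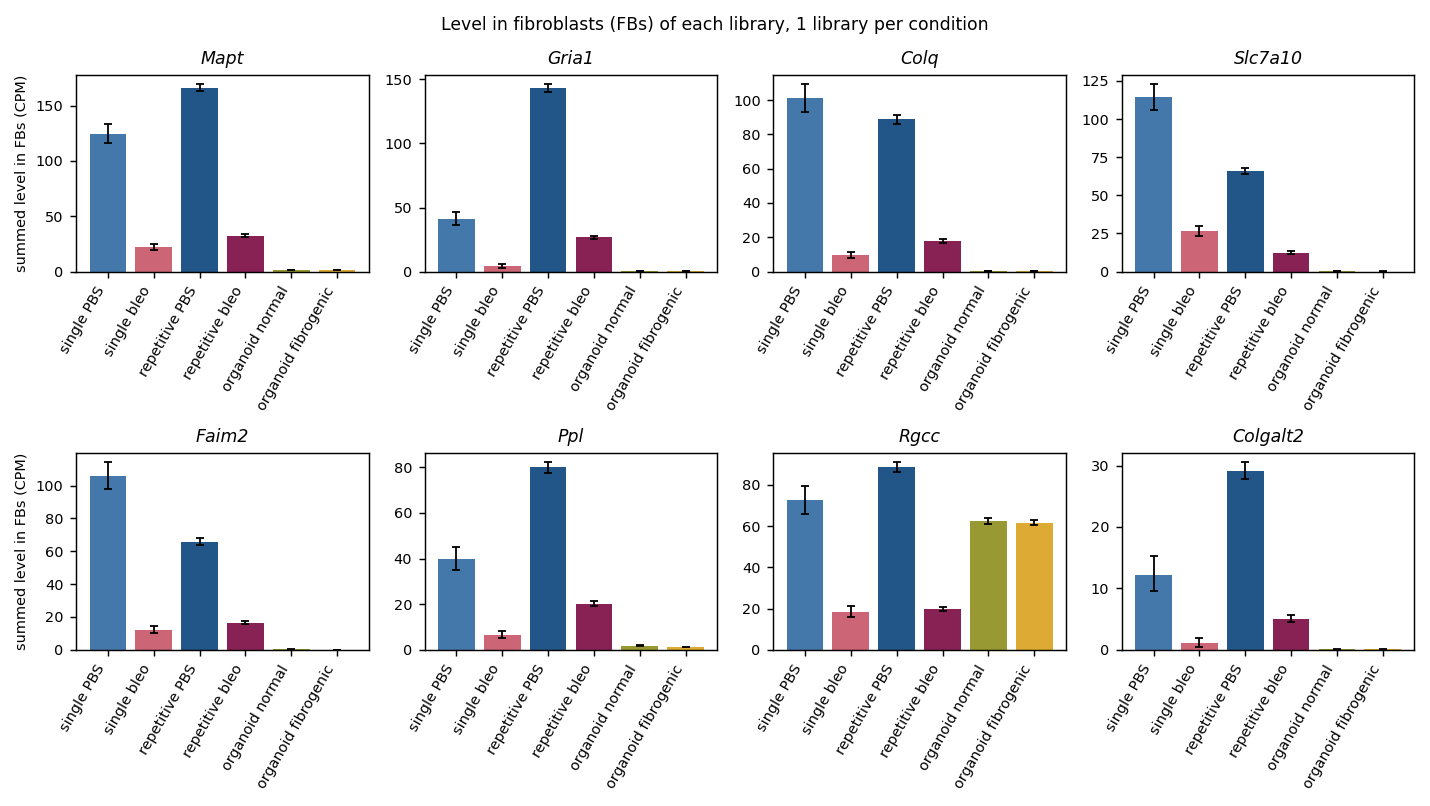
Summed level of each gene in the FBs of the 6 libraries, in CPM on a linear axis from 0, with exact 95% Poisson intervals. In all 8 panels the PBS bar stands above the bleomycin bar of the same experiment, and Rgcc is the gene with bars above 60 CPM in both organoid libraries.

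All 8 genes were called lower in the single-dose bleomycin FBs, where 3.84% of the 12149 genes tested were called lower, and all 8 in the repetitive bleomycin FBs, where 1.6% of 17268 were. These counts repeat the choice of the genes and carry no further weight. Their median log2 ratio was −2.56 after the single dose and −2.28 after repetitive exposure, and that of all tested genes was 0.09 and 0.10. The single-dose ratios were spread from −3.30 [−3.58 to −3.02] for Colq to −1.91 [−2.15 to −1.68] for Rgcc, whereas the repetitive ratios lay between −2.39 [−2.46 to −2.31] for Gria1 and −1.93 [−2.01 to −1.84] for Ppl. With 1 CPM added, Colq, Gria1 and Faim2 had the lowest ratios after the single dose, whereas by the levels themselves Colgalt2 had the largest fold in both experiments (11.6 and 5.79 times). In the repetitive experiment the intervals of Mapt, Gria1, Colq, Slc7a10 and Colgalt2 overlapped.

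Markers of other cell types in the FBs moved between the arms too. The 8 epithelial markers summed to 795 CPM in single-dose PBS FBs, of which Scgb1a1 was 704 CPM and Epcam was at 0, and to 95.97 CPM after bleomycin. In the repetitive libraries the sums were 95.4 and 130.1 CPM, with all 8 markers detected in both. The 5 plasma cell markers summed to 3.45 CPM in repetitive PBS FBs and 703 CPM after bleomycin, of which Igkc was 477 CPM. The part of these cells in the ratios was not tested.

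The share of FBs with at least 1 UMI was also higher in PBS. Mapt was found in 46.9% of single-dose PBS FBs and 17.5% of bleomycin FBs, and in 63.4% and 13.001% of the repetitive ones. With each barcode thinned to 2000 UMIs, which left out the shallower barcodes (52 and 41 in the single-dose libraries), the shares were 21.6% and 4.87%. In the repetitive libraries, where 150 PBS and 3452 bleomycin FBs were left out, they were 26.5% and 5.84%. For each of the 8 genes, the thinned share was higher in PBS than after bleomycin in both experiments. This direction repeats the choice of the genes, and such shares are not given here for all genes.

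For Gria1 the thinned shares were 7.52% and 0.953% in single-dose PBS and bleomycin FBs and 20.6% and 4.45% in the repetitive ones, from 20.4%, 4.21%, 49.9% and 8.23% unthinned. For Slc7a10 the thinned shares were 19.96% and 4.91%, and 12.4% and 2.37%, from 40.3%, 15.02%, 36.3% and 4.80%. In B cells, which should lack it, Slc7a10 had no UMI in the 45 barcodes of the repetitive PBS library (median 3380 UMIs, exact upper limit 7.87%) and in the 88 of the bleomycin library (median 3670.5, upper limit 4.11%). In the PBS library the share of FBs lay above that limit thinned and unthinned. In the bleomycin library the unthinned share lay just above it and the thinned share below it. The limits come from unthinned B cells, whose depth differed from that of the FBs, thinned or not. Other cell types had higher shares than B cells in the repetitive PBS library, with Slc7a10 in 34.7% of endothelial barcodes (median 12642 UMIs), 11.5% of myeloid and 10.7% of T or NK barcodes. Thinned, these were 6.97%, 2.27% and 3.56%, against 12.4% of FBs. Unthinned, the endothelial share was almost that of FBs.

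The FBs of each library were clustered without the 8 genes and without any marker gene, and clusters were named by markers. In PBS lung most FBs were LipoFB-like, 766 of 906 in the single-dose library and 4631 of 5384 in the repetitive library, so LipoFB-like clusters were defined against the matrix fibroblast (MatrixFB)-like barcodes of their own library, a reference chosen after the clusters were seen. MatrixFBs are adventitial FBs marked by Col14a1, Dcn and Pi16. After bleomycin, 545 and 3899 FBs were LipoFB-like, 166 and 2446 MatrixFB-like, and 91 and 656 myofibroblast (MyoFB)-like. The 10 LipoFB markers summed to 14763 CPM in the LipoFB-like and 3958 CPM in the MatrixFB-like barcodes of single-dose PBS lung, and to 5858 and 1186 CPM after bleomycin. Inmt was the largest part of it, at 10215 and 2312 CPM in PBS and bleomycin LipoFB-like cells, and Tcf21 was lower too, at 682 and 273 CPM. The markers did not all go down. Lpl, the lipoprotein lipase, was higher after bleomycin in LipoFB-like cells of both experiments, with log2 ratios of 2.61 and 2.71. In PBS lung, though, Lpl was lower in LipoFB-like cells than in other FBs (−0.79 and −0.74). Ces1d was close to its PBS level after bleomycin (−0.20 and −0.11), and Col13a1 was lower in one experiment and higher in the other (−0.32 and 0.15). As clusters were made per library, the same name covers different clusters in PBS and bleomycin.

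In PBS lung the 8 genes did not mark LipoFB-like cells alike. Slc7a10 stood at 133 CPM [123 to 143] in LipoFB-like and 5.61 CPM [1.82 to 13.1] in other FBs of the single-dose library, and at 73.05 CPM [70.8 to 75.4] and 6.999 CPM [5.11 to 9.37] in the repetitive library. Colq stood at 117 and 10.1 CPM, and at 98.99 and 4.67 CPM. Mapt stood at 144 and 12.3 CPM, and at 185 and 12.3 CPM. With these clusters the 3 genes were over 10 times higher in LipoFB-like cells than in the other FBs of the same PBS library, in both experiments. All 3 were called higher in both libraries under the other ways of drawing the groups too, but the sizes moved. Leading the PBS LipoFBs was a ground for choosing genes, so these calls describe that choice. The log2 ratio of Mapt in the repetitive library was 3.81 and came to 2.88 with finer and 2.28 with coarser clusters, that of Slc7a10 went from 3.21 to 2.69 with coarser clusters, and that of Colq in the single-dose library from 3.41 to 2.55 with a gate per barcode.

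Ppl was nearly even instead, and Faim2 and Gria1 depended on how the clusters were drawn. Ppl stood at 41.3 CPM in LipoFB-like and 31.4 CPM in other single-dose PBS FBs, and at 81.3 and 68.9 CPM in the repetitive library, with log2 ratios of 0.38 [−0.17 to 0.93] and 0.24 [0.10 to 0.37]. Faim2 had ratios of 0.65 [0.28 to 1.02] and 0.25 [0.10 to 0.41], and in the single-dose library it reached 1.97 with finer clusters and 1.07 with a gate per barcode, both past the threshold. Gria1 stood at 41.1 and 41.5 CPM in the single-dose library (log2 ratio −0.01 [−0.51 to 0.48], and 0.85 with finer clusters) and at 153 and 63.8 CPM in the repetitive one (1.25 [1.11 to 1.39]). The repetitive ratio was 0.23 with finer clusters, 0.21 with coarser ones and 0.85 with a gate per barcode, all short of the threshold. In the single-dose library, Mapt, Colq, Slc7a10 and Rgcc were called higher in LipoFB-like cells, 4 of 8, where 7.76% of 10256 genes were. In the repetitive library, 6 of 8 were called, with 6.41% of 15227 genes called, the additional 2 being Gria1 and Colgalt2. Rgcc, at 1.26 there, lost its call with finer clusters (0.87), coarser clusters (0.84) and no barcode filter (0.84), and Colgalt2 went from 2.91 to 1.59 with coarser clusters and kept its call. These ratios rest on 140 and 753 other FBs. As levels in PBS LipoFBs entered the choice of the genes, the counts of calls carry no further weight.

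The other PBS FBs differed among themselves. In the repetitive PBS library, the 600 MatrixFB-like barcodes had Faim2 at 18.7 CPM [15.04 to 23.1] and Gria1 at 16.4 CPM [12.9 to 20.5]. The peribronchial FB-like cluster of 142 barcodes was named from a marker list that holds Hhip, Aspn and Adh7, and it was led by Aqp1, Gm33206 and Adh7. It had Faim2 at 163 CPM [144 to 184] and Gria1 at 199 CPM [178 to 222], the highest Faim2 level of the 10 clusters. In that cluster Colq stood at 3.60 CPM, Slc7a10 at 2.40 CPM and Colgalt2 at 0.600 CPM. Faim2 and Gria1 were thus high there while Colq, Slc7a10 and Colgalt2 were near 0.

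The LipoFB-like cells of PBS lung held 2 kinds of clusters by these genes. In the single-dose library, LipoFB-like clusters 0, 1, 4 and 6 had Slc7a10 at 159, 295, 221 and 103 CPM, whereas clusters 2 and 5 had it at 29.3 and 15.3 CPM. Colq stood at 141, 314, 159 and 61.5 CPM in the first 4 and at 21.7 and 14.1 CPM in the last 2. Mapt stood at 219, 213, 189 and 123 CPM against 45.3 and 61.3 CPM. In clusters 2 and 5, Colq was nearer to its level in the MatrixFB-like cluster (10.4 CPM) than to those of the other LipoFB-like clusters, though both clusters had summed LipoFB markers of 12741 and 9708 CPM against 3958 CPM there.

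The repetitive PBS library had the same division. LipoFB-like clusters 0, 1, 2, 6 and 8 had Colq at 145, 143, 115, 296 and 153 CPM, and clusters 3, 5 and 7 at 15.8, 11.1 and 14.3 CPM. Slc7a10 stood at 112, 106, 90.1, 182 and 100.1 CPM in the first 5 and at 16.7, 11.3 and 13.1 CPM in the others. Faim2 followed, at 86.9 to 133 CPM in the first 5 and 20.7 to 29.5 CPM in the others. Gria1 went the other way in part, at 115 to 176 CPM in the first 5 and 138, 199 and 189.6 CPM in the others. Ppl was between 72.2 and 86.7 CPM in all 8. The highest cluster level of Colq was 26.6 times the lowest, and that of Ppl 1.20 times.

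Tcf21 and Kcnk2, which were not among the 8 genes, divided these clusters in the same way. In the repetitive PBS library, Tcf21, a transcription factor of LipoFBs, stood at 608, 660.3, 473, 1045 and 719 CPM in clusters 0, 1, 2, 6 and 8 and at 181, 193 and 193 CPM in clusters 3, 5 and 7. Kcnk2, a potassium channel, stood at 61.3, 55.9, 51.2, 23.6 and 49.3 CPM in the first and 106, 97.8 and 85.4 CPM in the second. In the single-dose PBS library, Tcf21 stood at 327 and 223 CPM in clusters 2 and 5 and at 585 to 1379 CPM in the other LipoFB-like clusters, and Kcnk2 at 97.2 and 114 CPM against 24.6 to 68.1 CPM. The clusters low in Colq and Slc7a10 were thus low in Tcf21 and high in Kcnk2 in both experiments. Other genes cut across the division. Repetitive PBS clusters 7 and 8, of different kinds, shared Ppm1n, Pde4c, Gm26802 and Gm3336 among their leading genes. MatrixFB-like barcodes of repetitive PBS lung had Tcf21 at 198 CPM, above clusters 3, 5 and 7. Those of single-dose PBS lung had it at 231 CPM, above cluster 5. Tcf21 thus did not set these clusters apart from MatrixFB-like cells, and their name rests on other markers. In repetitive clusters 3, 5 and 7, 8, 8 and 7 of the 10 LipoFB markers were raised.

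Atf3, an early stress-induced transcription factor, did not follow this division. It stood at 23.7 CPM in cluster 0 and 1423 CPM in cluster 1 of the repetitive PBS library, which had like levels of Colq, and at 1088 and 32.4 CPM in clusters 3 and 5, which were both low in it. In the single-dose PBS library it stood at 51.9 and 477 CPM in the clusters low in Colq and at 21.98 to 523 CPM in the others.

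**Figure D2:**
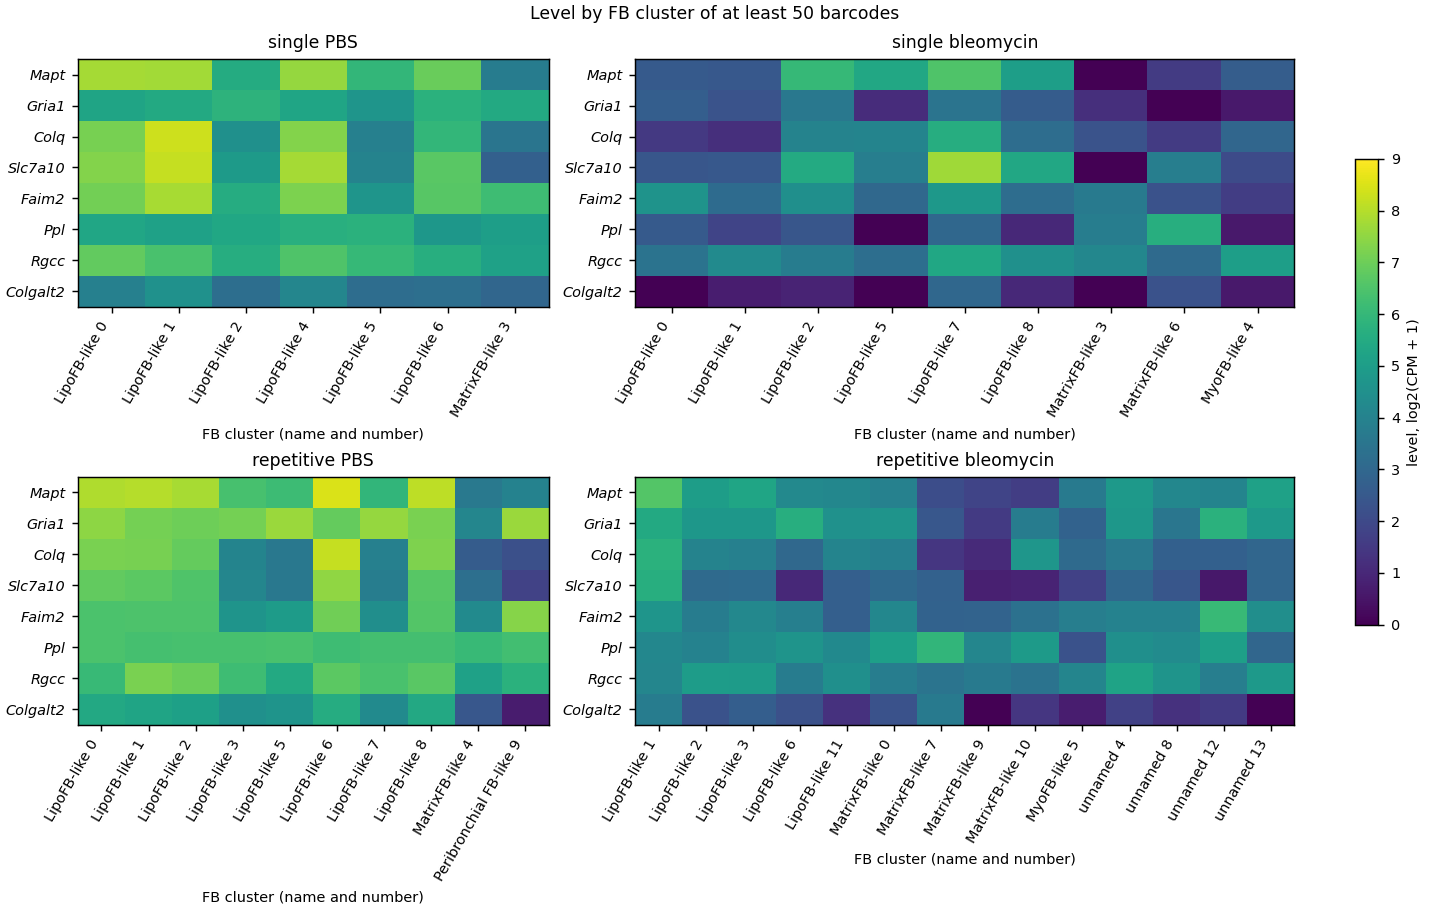
Level of each gene, as log2(CPM + 1) on a colour scale from 0 to 9, in every FB cluster of at least 50 barcodes in the 4 lung libraries, with clusters ordered by name. In PBS, Colq and Slc7a10 are bright in some LipoFB-like clusters and dark in others, while the row of Ppl is nearly even, and after bleomycin most cells of the map are dark.

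The lower level after bleomycin was seen within LipoFB-like clusters. All 8 genes were called lower there in the single-dose experiment, with 3.51% of 11350 genes called, and all 8 in the repetitive experiment, with 1.43% of 16324. LipoFB-like cells made up most of the PBS FBs whose levels entered the choice of the genes. These counts therefore largely repeat that choice and carry no further weight. Mapt stood at 144 CPM [134 to 155] and 32.01 CPM [27.9 to 36.5] in single-dose PBS and bleomycin LipoFB-like cells, and at 185 and 47.8 CPM in the repetitive ones. Ppl stood at 41.3 and 3.36 CPM, and at 81.3 and 17.7 CPM. The median log2 ratio was −2.65 and −1.99 in the 2 experiments, close to the −2.56 and −2.28 over all FBs, against 0.07 and 0.08 for all genes tested in LipoFB-like cells.

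In MatrixFB-like clusters the picture was mixed. After the single dose, 37 UMIs of Gria1 were counted in 132 PBS barcodes and 1 UMI in 166 bleomycin barcodes, a log2 ratio of −4.62 [−5.94 to −3.29]. Faim2 stood at 72.7 and 8.61 CPM, and Ppl at 32.3 and 27.4 CPM, with a log2 ratio of −0.23 [−0.93 to 0.46]. Gria1, Faim2 and Rgcc were called lower there and Ppl was not, 3 of the 4 genes with enough UMIs, where 5.11% of 8123 genes were called.

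In repetitive MatrixFB-like clusters, Rgcc was the gene called lower, 1 of 8, from 34.3 to 11.2 CPM, where 1.56% of 13004 genes were called. The median log2 ratio of the 8 was −0.86 against 0.13 for all genes, and 6 of the 8 were below 0. Slc7a10 (−0.94 [−1.45 to −0.42]), Faim2 (−0.89 [−1.26 to −0.51]), Mapt (−0.87 [−1.32 to −0.41]), Ppl (−0.86 [−1.06 to −0.65]) and Gria1 (−0.55 [−0.93 to −0.17]) had intervals below 0 and fell short of the threshold. Colq was higher after bleomycin, at 5.11 CPM [3.28 to 7.61] in the PBS library and 9.60 CPM [7.91 to 11.5] in the bleomycin library (log2 ratio 0.79 [0.25 to 1.33]), and Colgalt2 was level, at 4.47 and 5.01 CPM (0.14 [−0.45 to 0.73]). The MatrixFB-like barcodes of the bleomycin library included cluster 0, with a median of 1632 UMIs, summed LipoFB markers of 3345 CPM and Colq at 13.7 CPM, and cluster 10, with Colq at 25.7 CPM. Clusters 7 and 9 of the same name had Colq at 1.68 and 1.12 CPM. LipoFB markers moved between these MatrixFB-like groups too. Col13a1 (1.30), Wnt2 (0.98), Npnt (0.90) and Ces1d (0.75) were higher after bleomycin, while Inmt (−0.81) and Tcf21 (−0.64) were lower.

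**Figure D3:**
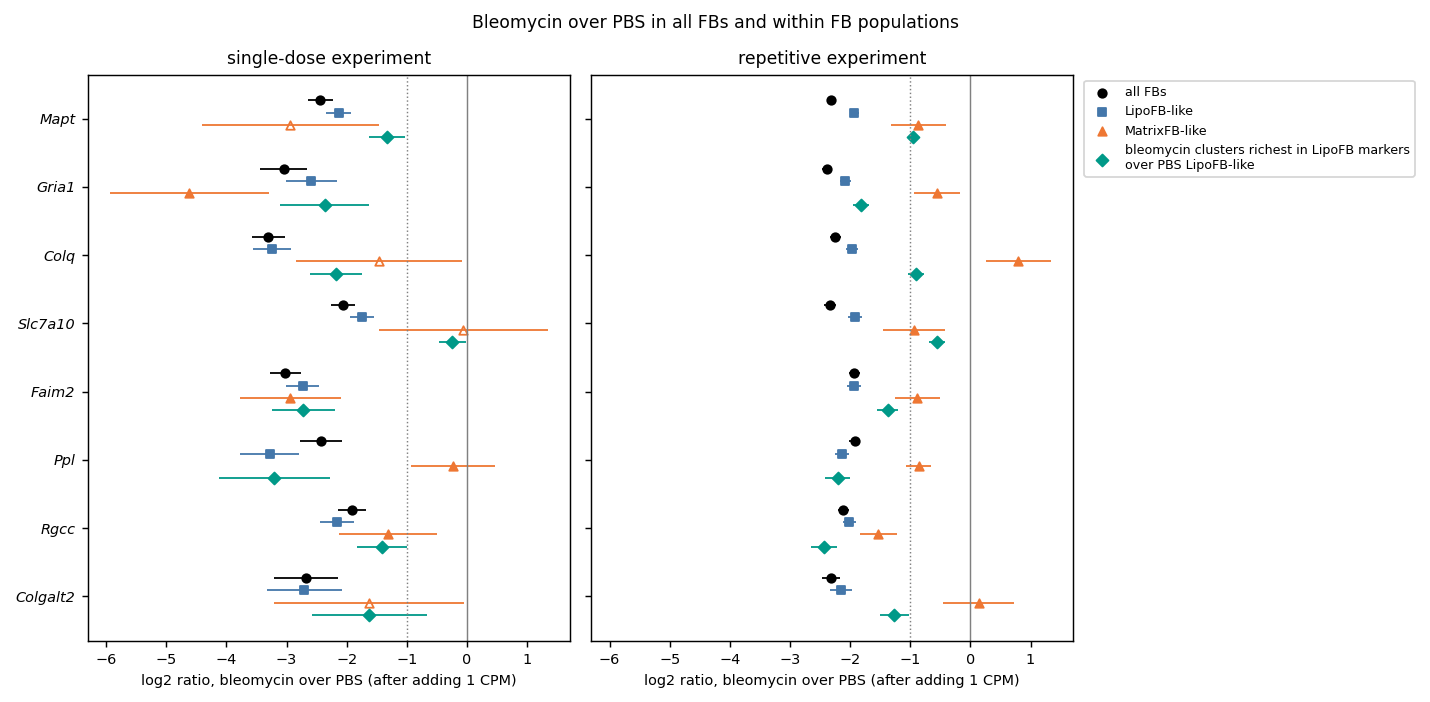
Log2 ratio of bleomycin over PBS for each gene in all FBs, in LipoFB-like clusters, in MatrixFB-like clusters, and for the bleomycin clusters richest in LipoFB markers over all PBS LipoFB-like cells, with 95% intervals for counting error. Open symbols had fewer than 20 UMIs and the dotted line marks a log2 ratio of −1. The ratios of all FBs and of LipoFB-like clusters lie left of the dotted line for all 8 genes, and those of MatrixFB-like clusters of the repetitive experiment mostly right of it.

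Some bleomycin FBs stood near PBS levels in part of the genes. Among the 9 single-dose bleomycin clusters of at least 50 barcodes, LipoFB-like cluster 7 (73 barcodes, 8.77% of FBs) had Slc7a10 at 210.2 CPM [178 to 247] and held 53.2% of that library's Slc7a10 UMIs in FBs. The next clusters had 44.7 and 41.2 CPM, and MatrixFB-like cluster 3 had no Slc7a10 UMI. In cluster 7, Mapt stood at 90.9 CPM [69.997 to 116], Colq at 48.3 CPM [33.4 to 67.5], Faim2 at 26.98 CPM, Gria1 at 9.94 CPM and Ppl at 7.10 CPM. Its Slc7a10 level lay within the range of the PBS LipoFB-like clusters (15.3 to 295 CPM), as did those of Mapt, Colq and Faim2. Gria1, Ppl, Rgcc (39.8 CPM) and Colgalt2 (7.10 CPM) lay below the lowest of those clusters (24.7, 26.4, 47.2 and 8.25 CPM). These ranges include the PBS clusters low in Slc7a10. Against the PBS LipoFB-like clusters high in Slc7a10, cluster 7 lay within the range for Slc7a10 and below it for Mapt and Colq.

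The repetitive bleomycin library had a like cluster. LipoFB-like cluster 1 (1125 barcodes, 13.3% of FBs) held 68.8% of the Slc7a10 UMIs, 50.5% of the Mapt UMIs and 50.05% of the Colq UMIs of the bleomycin FBs. Its levels were 49.2 CPM [44.996 to 53.7] for Slc7a10, 95.6 CPM [89.7 to 102] for Mapt and 52.4 CPM [48.004 to 56.99] for Colq. In the other 4 LipoFB-like clusters of that library (2, 3, 6 and 11), Slc7a10 stood at 1.04 to 7.93 CPM. Cluster 11 was led by Igkc, an immunoglobulin gene, and by Cxcl13.

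The bleomycin clusters with the most LipoFB markers were set against all PBS LipoFB-like cells, clusters 7 and 8 of the single-dose library and cluster 1 of the repetitive one. Slc7a10 then had log2 ratios of −0.24 [−0.47 to −0.01] and −0.56 [−0.69 to −0.43], and Ppl −3.21 [−4.13 to −2.28] and −2.21. Gria1 had −2.37 [−3.11 to −1.63] and −1.82 [−1.95 to −1.68], and Mapt −1.33 [−1.63 to −1.03] and −0.95 [−1.04 to −0.85]. Ratios below −1 were found for 7 of 8 genes after the single dose, all but Slc7a10, where 5.22% of 10342 genes were called, and for 5 of 8 after repetitive exposure, all but Mapt, Colq and Slc7a10, where 2.7% of 15309 were. Slc7a10 was thus nearest to its level in PBS LipoFB-like cells in both experiments. Farthest from it were Ppl after the single dose and Rgcc after repetitive exposure (−2.44 [−2.64 to −2.23]). This reference, with Slc7a10 at 133 and 73.0 CPM, includes the PBS clusters low in Slc7a10. Repetitive cluster 1, at 49.2 CPM, lay below every PBS cluster of the kind high in Slc7a10. The single-dose clusters 7 and 8, at 112 CPM together, lay within the range of that kind. They were unlike, with cluster 7 alone at 210.2 CPM and cluster 8 below that range. The joint Slc7a10 level and its ratio thus rest largely on cluster 7.

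Ppl kept another order after bleomycin. Its highest level among the single-dose bleomycin clusters of at least 50 barcodes was in MatrixFB-like cluster 6, at 48.4 CPM [31.3 to 71.4], with 0.529 CPM in MyoFB-like cluster 4 and 0 to 7.10 CPM in the 6 LipoFB-like clusters. In the repetitive bleomycin library it was highest in MatrixFB-like cluster 7, at 59.1 CPM [51.4 to 67.6], and lowest in the MyoFB-like cluster, at 3.81 CPM [2.55 to 5.47]. Both MatrixFB-like clusters had Sult1e1 as their leading gene. Faim2, which was high in the peribronchial FB-like cluster of PBS lung, stood at 65.4 CPM [54.9 to 77.3] in the unnamed cluster 12 of the repetitive bleomycin library, which was led by Adh7, Tspan8 and Aqp1, and at no more than 25.1 CPM in the other 13 clusters. Adh7 and Aqp1 were leading genes of that peribronchial FB-like cluster too.

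MyoFB-like cells, which formed a cluster in the bleomycin but not in the PBS lung libraries, were low in most of the 8 genes. In the 91 barcodes of the single-dose library, Gria1, Ppl and Colgalt2 had 1 UMI each (0.529 CPM), and Mapt stood at 5.29 CPM. Rgcc was the exception, at 32.3 CPM [24.7 to 41.5], above the 16.96 CPM [14.01 to 20.3] of the LipoFB-like cells of that library. In the repetitive library, Rgcc stood at 16.3 CPM [13.6 to 19.4] in MyoFB-like and 22.7 CPM [21.2 to 24.4] in LipoFB-like cells, so that order was not found there.

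Across clusters, most of the genes moved with the LipoFB markers. Over the 16 single-dose and 24 repetitive clusters of at least 50 barcodes, PBS and bleomycin together, log2(CPM + 1) of Mapt and of the summed LipoFB markers had a Pearson correlation of 0.93 and 0.97. For Gria1 it was 0.84 in both, for Slc7a10 0.85 and 0.82, for Colq 0.82 in both, for Faim2 0.79 and 0.68, for Rgcc 0.70 and 0.79 and for Colgalt2 0.70 and 0.76. Ppl was lowest at 0.34 and 0.42. Clusters of a library share its depth and its treatment, and the genes were chosen for a difference between treatments, so the values are descriptive.

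Among the 8 genes, Mapt and Slc7a10 had the closest cluster profiles, with correlations of 0.91 (single dose) and 0.90 (repetitive). By the mean of both experiments, Mapt and Colq (0.89 and 0.85) and Colq and Slc7a10 (0.86 and 0.87) came next. Faim2 and Gria1 correlated at 0.91 and 0.79. Mapt and Ppl were the least alike of the 28 pairs in the single-dose experiment, at 0.28, and stood at 0.46 in the repetitive one, where the lowest pair was Colq and Ppl at 0.40. PBS and bleomycin clusters were pooled here as well. The shared difference between treatments, for which the genes were chosen, thus enters these correlations, and they are descriptive.

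**Figure D4:**
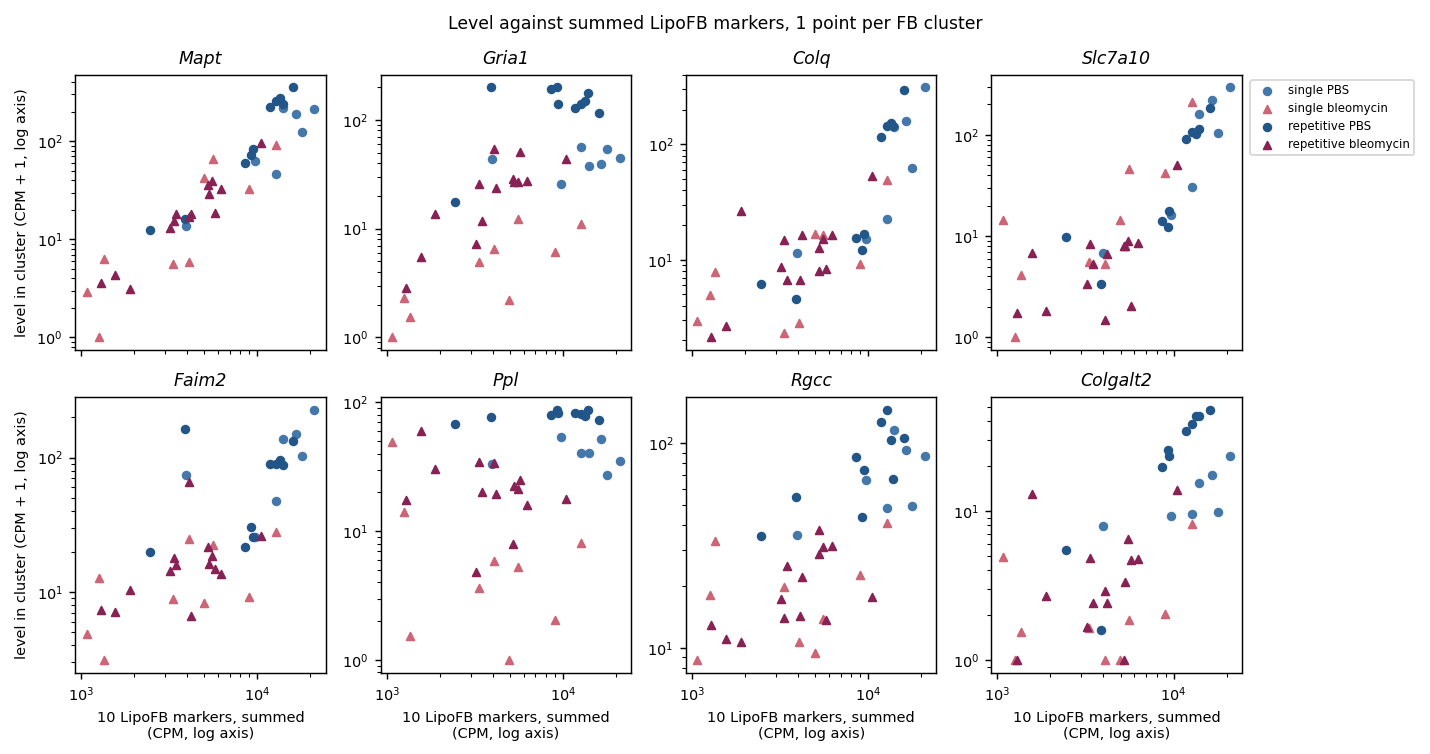
Level of each gene (CPM + 1, log axis) against the summed level of the 10 LipoFB markers (CPM, log axis), with 1 point per FB cluster of at least 50 barcodes, circles for PBS and triangles for bleomycin. The points of Mapt lie along 1 band (correlations 0.93 and 0.97), whereas those of Ppl are scattered (0.34 and 0.42).

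The genes outside all lists whose cluster profiles were most like each of the 8 were taken by the mean of the 2 experiments' correlations, among 6826 genes with at least 20 CPM in a cluster of each experiment. For Mapt they were Adra1a, the alpha-1A adrenergic receptor (mean correlation 0.96), Specc1l and Cdo1. For Gria1 they were Kank3, Tns1 and Pgm5, for Colq Emp2, Sgms1 and Rad50, and for Slc7a10 Epha1 (0.94), Nap1l1 and Zyx. For Faim2 they were Synm, Cd81 and Cbfa2t3, for Ppl Plpp3, Xdh and Gstm1, for Rgcc Fbxo30 (0.93), Cited2 and Sbds, and for Colgalt2 Il6ra, Fbxo30 and Zyx. Fbxo30 was on the lists of Rgcc and Colgalt2 and Zyx on those of Slc7a10 and Colgalt2. With PBS and bleomycin clusters pooled, likeness from a shared difference between treatments was not told apart from likeness within a treatment.

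Single barcodes held more of the 8 genes in PBS, a direction that repeats the choice of the genes. With each barcode thinned to 2000 UMIs, 36.3% of 721 single-dose PBS LipoFB-like barcodes had none of the 8 and 14.6% had 3 or more, against 78.7% and 0.373% of 536 after bleomycin. In the repetitive experiment the shares with none were 26.3% of 4592 PBS and 71.5% of 2683 bleomycin barcodes, and those with 3 or more 14.6% and 1.12%. The mean number detected was 1.17 and 0.256 genes in single-dose PBS and bleomycin LipoFB-like barcodes, 0.360 and 0.162 in MatrixFB-like barcodes and 0.0380 in MyoFB-like barcodes. In the repetitive experiment the means were 1.31 and 0.359 in LipoFB-like, 0.269 and 0.174 in MatrixFB-like and 0.103 in MyoFB-like barcodes. LipoFB-like barcodes after bleomycin thus lay below the MatrixFB-like barcodes of PBS lung in the single-dose experiment and above them in the repetitive one.

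**Figure D5:**
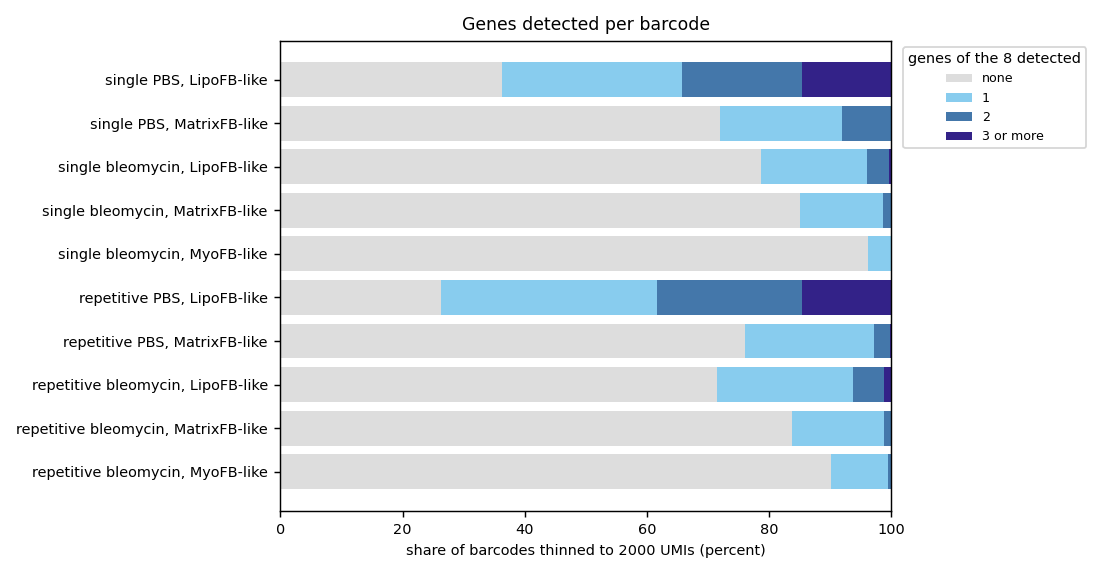
Share of barcodes, thinned to 2000 UMIs each, in which none, 1, 2 or at least 3 of the 8 genes had a UMI, by library and FB group. The PBS LipoFB-like bars have the smallest share with none and are the bars with more than 10% at 3 or more.

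Barcodes of other cell types in the lung libraries also held these transcripts, beside RNA of FBs. In the repetitive PBS library, Mapt stood at 299 CPM [274 to 325] in 121 endothelial barcodes, above the 166 CPM of FBs, where Tcf21 stood at 271 CPM in endothelial barcodes and 440.1 CPM in FBs and Col1a1 at 268 and 694 CPM. Endothelial barcodes exceeded FBs in Mapt in the 3 other lung libraries too, named after their values were seen since they had under 50 barcodes, at 255 CPM [204 to 315] (39 barcodes, single-dose PBS), 97.5 CPM [57.8 to 154] (12, single-dose bleomycin) and 183 CPM [127 to 255] (26, repetitive bleomycin). In the last, Tcf21 was at 21.5 CPM and Pdgfra at 37.6 CPM in the same barcodes, against 184 and 371 CPM in FBs. Doublets of FBs with other cells and free RNA were not told apart.

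Colq in T or NK barcodes of the repetitive PBS library stood at 114 CPM [92.2 to 139], with a UMI in 36.9% of 122 barcodes (median 4028 UMIs), against 88.7 CPM and 37.04% in FBs (median 10564 UMIs). Inmt, an abundant FB gene, stood at 1733 CPM in those barcodes and 4653 CPM in FBs, and Slc7a10 at 34.4 and 65.8 CPM. In B cells of the same library, Colq had 1 UMI in 45 barcodes. The share of barcodes with a Colq UMI was thus almost the same in FBs and in the shallower T or NK barcodes (thinned, 15.001% and 20.7%), and its level ranged from 3.60 to 296 CPM between FB clusters.

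Rgcc was above its FB level in several other cell types, which varied by library. In the repetitive bleomycin library it stood at 252 CPM [236 to 269] in 736 myeloid barcodes, 180.4 CPM [143 to 225] in T or NK barcodes and 89.6 CPM [69.4 to 114] in 180 plasma cell barcodes, against 19.8 CPM in FBs. In the repetitive PBS library the T or NK level was 199 CPM [170.2 to 232], against 88.6 CPM in FBs. Myeloid barcodes lay below FBs in the other lung libraries, at 38.6 CPM in repetitive PBS, 9.70 against 72.6 CPM in single-dose PBS and 10.5 against 18.5 CPM in single-dose bleomycin, the single-dose myeloid values resting on 4 and 5 UMIs.

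In organoid FBs, 7 of the 8 genes stood below 2 CPM in both libraries. Slc7a10 had 5 UMIs in 2843 normal FBs and none in 5768 fibrogenic FBs, where the exact Poisson interval reaches up to 0.0215 CPM. Colq had 4 and 14 UMIs, Colgalt2 12 and 14, Faim2 27 and 20, and Gria1 43 in each, all below 1 CPM of 126310514 and 171424883 FB UMIs. Mapt stood at 1.10 CPM [0.925 to 1.30] in normal and 1.53 CPM [1.35 to 1.73] in fibrogenic FBs, and Ppl at 1.75 CPM [1.53 to 1.996] and 1.17 CPM [1.02 to 1.35]. In the lung libraries, which were counted in separate tables, each of these 7 genes stood at 1.05 CPM or more.

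Rgcc was the exception in culture, at 62.4 CPM [61.05 to 63.8] in normal and 61.7 CPM [60.5 to 62.9] in fibrogenic FBs, from 7884 and 10573 UMIs. The log2 ratio of fibrogenic over normal was −0.02 [−0.06 to 0.02], an interval that holds 0 and lies far above the −1.91 and −2.11 of freshly sorted bleomycin over PBS FBs. Over the 14 normal and 18 fibrogenic FB clusters of at least 50 barcodes, Rgcc ranged from 7.53 to 143 and from 6.87 to 207 CPM. Organoid epithelium had more of it, at 206 CPM [202 to 209] and 147 CPM [144 to 150.2]. Sftpc, an epithelial surfactant gene, stood at 4526 and 2303 CPM in organoid FBs against 68189.8 and 60742 CPM in the epithelium, and the part of epithelial RNA in the Rgcc of FBs was not tested. With a gate per barcode the log2 ratio of Rgcc was 0.17.

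None of the 6 genes with at least 20 UMIs was called lower in fibrogenic over normal organoid FBs, where 0.759% of 18312 genes were, and their median log2 ratio was −0.06 against −0.02 for all genes. Mapt had a ratio of 0.27 [0.10 to 0.43] and was higher in fibrogenic FBs. Ppl had one of −0.34 [−0.50 to −0.18], which turned to 0.11 with a gate per barcode. Adding 1 CPM shrinks the ratios of genes this low and changes their order. By level, Faim2 differed more than Ppl, at 0.214 and 0.117 CPM (1.83 against 1.49 times higher in normal FBs). LipoFB markers were low in organoid FBs as well, with Tcf21 at 19.3 and 19.6 CPM, Npnt at 8.69 and 11.4 CPM and Inmt at 48.4 and 71.6 CPM, while Col1a1 stood at 2803 and 3059 CPM. Ppl was at 27.4 CPM [26.2 to 28.5] and 25.2 CPM [23.99 to 26.5] in organoid epithelium, above its level in the FBs beside it, and the part of epithelial RNA in the Ppl of FBs was not tested.

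Genes that work with the 8 were counted beside the 3.84% (single dose) and 1.6% (repetitive) of all genes called lower. Of 18 microtubule-associated genes, 12 were measured after the single dose, with 1 lower and 3 higher, and 16 after repetitive exposure, with 0 lower and 3 higher. Their medians were 0.26 and 0.14, against 0.09 and 0.10 for all genes, of which 9.56% and 5.95% were called higher. Dclk1, a doublecortin-like kinase that binds microtubules, was higher in both, from 24.2 to 91.5 CPM after the single dose and by a log2 ratio of 1.39 after repetitive exposure, and Mapre3, an end-binding protein, was lower at −1.04 after the single dose. In these FBs Mapt was lower while Dclk1, Map1b and Map6 were higher in both experiments.

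Of 28 genes of glutamate receptors and their partners, 6 had 20 UMIs after the single dose, with 13 at 0 in both libraries, and 26 after repetitive exposure. Gsg1l, which encodes an auxiliary protein of AMPA receptors, was the gene called lower in both, from 8.73 to 1.24 CPM after the single dose (−2.12) and from 13.02 to 3.32 CPM after repetitive exposure (−1.70). Cnih2, another AMPA receptor partner, was the 1 called higher after the single dose, and Gria4 and Grin2a were called higher after repetitive exposure, all at or below 6.18 CPM. The medians were 0.47 and 0.13.

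Of 20 genes of the cholinergic synapse, 7 and 12 were measured. Ache, the enzyme that ColQ anchors, had no UMI in PBS FBs and 3 and 6 UMIs in bleomycin FBs of the single-dose and repetitive experiments. The lowest ratios were those of Lrp4, an agrin receptor (−1.06, single dose), and Bche, butyrylcholinesterase (−1.36, repetitive), each the 1 gene called lower in its experiment. Chrna7, a nicotinic acetylcholine receptor subunit, had the highest ratio in both, from 1.98 to 14.5 CPM and from 21.2 to 70.1 CPM. Colq and Chrna7 thus stood on opposite sides in both experiments, and the list medians were −0.16 and 0.17.

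Of 21 genes of amino acid transport and serine synthesis, none was called lower, and 6 of 17 after the single dose and 2 of 21 after repetitive exposure were called higher. Slc7a2, a carrier of cationic amino acids, had the highest ratio in both, from 6.26 to 43.5 CPM (2.62) and from 8.86 to 74.002 CPM (2.93). Slc1a4, a carrier of serine and alanine like Slc7a10, had the lowest, at −0.73 and −0.64. Slc7a10 was low after bleomycin where Slc7a2 of the same gene family was high.

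The remaining lists had no gene called lower in either lung experiment. In the TMBIM family and Fas pathway, 12 of 13 genes were measured in both, and Casp8, the initiator caspase of the Fas pathway, was the 1 called higher, at 1.25 and 1.21, while Tmbim1, a relative of Faim2, had the lowest ratio at −0.52 and −0.60. Of the plakin and desmosome genes none of 7 and 12 measured was called in either direction, with Jup (plakoglobin) lowest at −0.93 and −0.88. Of the 8 partners of Rgcc, 4 and 3 were called higher, led by Cdk1 at 3.72 [3.26 to 4.17] and 2.26, from 0.165 (1 UMI) to 14.3 and from 0.458 to 5.99 CPM.

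Of the collagen-modifying genes beside Colgalt2, 5 of 14 were called higher after the single dose and 3 of 15 after repetitive exposure. P4ha3, a prolyl hydroxylase subunit, had the highest ratio, from 0.823 to 53.6 CPM and from 1.05 to 24.7 CPM. Colgalt1, the other collagen galactosyltransferase, was called higher after the single dose, from 54.2 to 112 CPM. Colgalt2 had a log2 ratio of −2.68 [−3.22 to −2.15] in the same FBs, so the 2 enzymes stood on opposite sides. The list medians were 0.60 and 0.55.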

How the data were processed

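Each of the 6 samples was 1 10x Genomics library, grouped by its labels. The authors deposited whole-number UMI counts per gene and barcode. Per the labels and the study's methods, reads were processed with Cell Ranger 3.0.1 on GRCm38, and Seurat 3 was used downstream. The methods name Gencode M17 without limiting it to 1 experiment. The repetitive and organoid tables held 32285 rows, against 30830 and 30828 in the single-dose ones. Whether all were counted on that annotation could not be told. Barcodes more than 3 median absolute deviations above their cluster's median in mitochondrial or erythrocyte UMIs were left out. Whole clusters with a mean above 25% mitochondrial or 0.5% erythrocyte UMIs were left out too. Among these were a repetitive cluster of 709 barcodes (median 952 UMIs) and an organoid cluster of 455. Scrublet marked 11, 3, 1, 0, 1 and 0 barcodes, too few for doublets to count as removed. Barcodes were clustered per experiment and FBs again per library (Scanpy 1.11.5, Leiden), without the listed genes, and named by markers. Where no PBS cluster met the LipoFB rule against all other FBs, clusters were named LipoFB-like by at least 5 of 10 markers raised over MatrixFB-like barcodes, a reference chosen after seeing the data.

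UMIs were summed per group and given as CPM with exact Poisson intervals. Log2 ratios after adding 1 CPM carry intervals for counting error. A gene was called past a log2 ratio of 1 in size with at least 20 UMIs. With 1 library per condition no test was made. The 8 genes and the gene lists were chosen with earlier results of these data known. The text names all 8 genes, clusters of at least 50 barcodes, the lowest and highest gene and the called genes of each list, and the 3 most alike genes. On Poisson counts simulated at the total UMIs of the single-dose libraries, 100% of 200 changed and 0.0483% of unchanged genes were called. The changes were a log2 of 2 in size, in genes expected at 50 UMIs or more. Variation between mice, libraries or cells was not simulated, so these shares cover counting error only.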

Additional observations from a re-analysis of the deposited data

How the results depend on the processing

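No paired analysis was possible because each condition had 1 library and no replicate numbers. The 8 genes were chosen for these differences, so the counts below largely repeat that choice and carry no further weight. At the main settings, 3.84% and 1.6% of all tested genes were called lower after single-dose and repetitive bleomycin. In PBS LipoFB-like cells, 7.76% and 6.41% were called higher. Shares of all genes under the other settings are not given here. The counts of genes called lower after bleomycin stood at 8 of 8 in both experiments under the per-barcode gate, both other clustering resolutions, no barcode filter, a 2000 UMI minimum, a 5 CPM pseudocount, centring on the median gene and removal of marked doublets, in FBs outside the clusters named for other FB types, and within LipoFB-like clusters (the last chosen after seeing the data). In MatrixFB-like clusters, an alternative chosen after seeing the data, 3 genes were called lower after the single dose and 1 after repetitive exposure, and in the latter Colq stood at 0.79 and Colgalt2 at 0.14 on the log2 scale, above 0 (the cause was not tested). The genes higher in PBS LipoFB-like cells numbered 4 to 5 in the single-dose and 4 to 6 in the repetitive library, where Gria1 lost its call at both other resolutions and under the gate and Rgcc at both other resolutions and with no barcode filter, and Faim2 gained one in the single-dose library at the finer resolution and under the gate. None of the 6 genes with enough UMIs was called lower in fibrogenic organoid FBs under the alternatives run, though Ppl and Rgcc turned from below to above 0 under the gate (0.11 and 0.17). With 1 library per condition, variation between mice is unmeasured, and depth limits what genes at a few UMIs can show, chiefly Colgalt2 after the single dose and 5 genes in organoids.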
